A study of Mus musculus with 3 samples.

Results

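Myelin is the lipid-rich sheath that oligodendrocytes wrap around axons. The genes described here are 7 that encode proteins of that sheath, namely Mbp, Mag, Mog, Mobp, Cldn11, Mal and Cnp. They were taken by symbol from the deposited gene tables, where they are 7 of 27998 genes, each present in all 3 libraries. Values are counts of unique molecular identifiers (UMIs), which count captured mRNA molecules near their 3′ end, and levels are given as counts per 1000000 UMIs of the same cells (CPM), with no division by gene length.

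The study sorted cells from the dissociated wall of the lateral ventricle, the subventricular zone, of 5 adult mice into 3 single-cell libraries. The mice carried aSMACreERt2, a tamoxifen-inducible Cre recombinase that the Acta2 (smooth muscle actin) promoter drives, a Rosa26 tdTomato reporter, and the Sox2 GFP knock-in allele of B6;129S-Sox2tm2Hoch/J, on a mixed background of C57/Bl6(3/4) and 129S1SvlmJ(1/4). The tdTomato-positive library was made from 1200 sorted cells positive for tdTomato and GFP, and tdTomato-negative libraries 1 and 2 from 1200 and 6000 cells that were GFP-positive and tdTomato-negative. All libraries thus came from the same genotype and the same GFP gate. The labels do not tie libraries to animals, so spread between libraries may be technical, and the tdTomato-positive gate has 1 library.

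The 7 proteins have different places in the sheath. Mbp, myelin basic protein, holds the cytoplasmic faces of the membrane together, and Mobp is a small basic protein of the same compartment. Mag is an adhesion glycoprotein of the membrane next to the axon, Mog an immunoglobulin-family protein of the outermost surface, Cldn11 the claudin of myelin's tight junctions, and Mal a proteolipid of lipid rafts. Cnp, a cyclic nucleotide phosphodiesterase of the cytoplasmic channels, is present early in the lineage. As background, the mRNAs of Mbp and Mobp are carried along oligodendrocyte processes and translated at the sheath. RNA that is free in a cell suspension can enter droplets together with any cell. Free RNA itself was not measured, because barcodes of empty droplets were not analysed here.

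Promoters of 4 of the genes are shown because these genes rose at different points of the lineage, Cnp earliest, Mag between, and Mobp and Mal last. Each is the RefSeq window of 300 bases on GRCm38.p6, 250 before and 50 after the annotated start, printed 5′ to 3′ on the gene's strand. Capitals mark the core ACAAAG that SOX factors such as Sox10 recognise, or its reverse complement CTTTGT, and the core CTGGNAC reported for Myrf, the transcription factor of myelin gene activation, or its reverse complement.
Cnp, chr11:100574689-100574988, plus strand: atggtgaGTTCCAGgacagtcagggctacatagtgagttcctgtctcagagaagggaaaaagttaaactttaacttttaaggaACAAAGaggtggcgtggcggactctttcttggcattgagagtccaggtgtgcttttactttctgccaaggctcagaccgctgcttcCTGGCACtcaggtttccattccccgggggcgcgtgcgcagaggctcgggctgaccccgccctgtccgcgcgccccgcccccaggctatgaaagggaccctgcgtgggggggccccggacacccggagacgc
Mag, chr7:30914814-30915113, minus strand: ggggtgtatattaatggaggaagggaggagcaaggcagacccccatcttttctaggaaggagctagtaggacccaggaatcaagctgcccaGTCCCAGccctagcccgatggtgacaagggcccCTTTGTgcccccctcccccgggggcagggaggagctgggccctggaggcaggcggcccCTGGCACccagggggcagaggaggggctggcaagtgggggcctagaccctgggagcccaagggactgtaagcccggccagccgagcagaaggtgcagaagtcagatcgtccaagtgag
Mobp, chr9:120149492-120149791, plus strand: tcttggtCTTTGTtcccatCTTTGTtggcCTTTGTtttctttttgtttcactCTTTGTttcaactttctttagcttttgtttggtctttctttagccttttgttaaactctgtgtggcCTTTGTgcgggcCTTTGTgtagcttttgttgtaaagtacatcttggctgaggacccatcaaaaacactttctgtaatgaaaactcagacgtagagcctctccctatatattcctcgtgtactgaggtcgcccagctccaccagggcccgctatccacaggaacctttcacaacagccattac
Mal, chr2:127656646-127656945, minus strand: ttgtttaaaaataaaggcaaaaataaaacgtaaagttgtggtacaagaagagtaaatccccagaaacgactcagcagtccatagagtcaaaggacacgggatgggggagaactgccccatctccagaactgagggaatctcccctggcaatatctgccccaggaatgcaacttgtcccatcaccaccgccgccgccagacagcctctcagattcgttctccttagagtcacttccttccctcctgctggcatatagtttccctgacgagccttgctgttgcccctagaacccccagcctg
A window of the table was available for 6 of the 7 genes, 8 windows in all. The Cnp window held 1 ACAAAG and 2 CTGGNAC matches, as did the Mag window shown. Of the 3 Mag windows in the table, another overlaps the one shown and holds the same matches, and chr7:30914272-30914571 holds no match. The Mobp window held 6 matches of ACAAAG, all on the minus strand, and 1 of 32851 windows in the table held 6 or more. The Mal and Cldn11 windows held no match, and the Mog window held 1 CTGGNAC match. Across the 32851 windows 18.7% held ACAAAG and 19.3% held CTGGNAC on either strand. The related core ACAATG, searched in the same way and present in 12.6%, was in none of the 8 windows. These matches describe letters in the windows and were not tested for binding.

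On GRCm38, in the GENCODE vM21 annotation, the genes lie on 7 chromosomes. Mbp is at chr18:82475146-82585637 on the plus strand, Mobp at chr9:120149707-120181484 on the plus strand, and Mag at chr7:30899176-30914873 on the minus strand. Mog is at chr17:37010743-37023398 on the minus strand and Cldn11 at chr3:31149920-31164324 on the plus strand. Mal is at chr2:127633226-127656695 on the minus strand and Cnp at chr11:100574904-100591729 on the plus strand. Cnp overlaps Dnajc7, a protein-coding gene of the opposite strand that is also in the count table. The Mbp locus also makes the longer golli transcripts from an upstream start, which 3′ counts may not separate from those of the myelin protein.

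Of 314, 259 and 1127 barcodes in the tdTomato-positive library and in tdTomato-negative libraries 1 and 2, 252, 256 and 1121 passed a filter of at least 300 genes and at most 25% mitochondrial UMIs. They held 720340, 926246 and 3585917 UMIs, with medians of 2535, 2640 and 2401 per cell. The tdTomato-positive library shared 0 barcodes with tdTomato-negative library 1 and 1 with tdTomato-negative library 2, and the negative libraries shared 2. The libraries differ in make-up and in mitochondrial share. Ependymal-like cells, the ciliated lining of the ventricle, were 177 of 252 cells in the tdTomato-positive library, against 12 of 256 and 46 of 1121 in the tdTomato-negative libraries. The median mitochondrial share was 8.27% in the tdTomato-positive library, against 3.22% and 3.38%. Cells were clustered without the 7 genes and named from marker lists, which gave 54 oligodendrocyte-like cells (14, 9 and 31 by library in the same order) and 52 oligodendrocyte precursor-like cells (0, 13 and 39). The other 1523 kept cells lay outside the lineage.

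All 7 genes rose in the oligodendrocyte lineage, but at different points of it. Sub-clustering of the lineage, also without the 7 genes, gave 50 precursor-like cells led by Pdgfra, 19 committed oligodendrocyte-like cells led by Bmp4 and holding Enpp6 among their leading genes, and 37 mature oligodendrocyte-like cells led by Car2, Trf, Ermn and Apod. Committed cells came from tdTomato-negative libraries 1 and 2 (7 and 12 cells), and mature cells from all 3 libraries (14 in the tdTomato-positive library, 3 and 20 in the tdTomato-negative ones). Summed over committed cells, Mbp, Cldn11 and Cnp were close to their mature level, Mag was intermediate, Mog and Mobp were low, and Mal was at 0 UMIs. Single committed cells held a large part of the Mbp sums, and of the Cldn11 and Mag sums of tdTomato-negative library 2. The median committed cell held fewer Mbp and Cldn11 UMIs than the median mature cell, at greater depth.

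In the 52 cells of the precursor-like class, from tdTomato-negative libraries 1 and 2, Cnp had 14 and 34 UMIs, 409 and 289 CPM, and averaged 349 ± 85 CPM (SD, n = 2 libraries). Mbp had 5 and 9 UMIs there, 146 and 76.4 CPM. Cldn11 had 0 and 2 UMIs and Mag 0 and 1. Mog, Mobp and Mal had 0 UMIs in these cells. Cnp was thus the member with the most UMIs before commitment, and 3 members were undetected.

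Committed cells of tdTomato-negative libraries 1 and 2 had Mbp at 8563 and 7215 CPM, and mature cells of the same libraries at 9628 and 8592 CPM, 1.12 and 1.19 times as much. Cldn11 stood at 2297 and 3216 CPM in committed cells and at 2342 and 3975 CPM in mature cells. Cnp stood at 2523 and 4315 CPM in committed cells and at 2515 and 4962 CPM in mature cells. Summed over cells, these 3 genes were already abundant at commitment in both libraries, with mature-to-committed ratios from 0.997 to 1.24. Single committed cells held 165 of 302 and 182 of 525 Mbp UMIs in tdTomato-negative libraries 1 and 2. In library 2, 1 cell held 129 of 234 Cldn11 UMIs. Over all libraries, median UMIs per committed cell were 12 for Mbp, 8 for Cldn11 and 17 for Cnp. Mature cells had medians of 31, 12 and 15. Median depths were 6488 UMIs per committed and 3765 per mature cell. The median committed cell was thus below the median mature cell in Mbp and Cldn11 UMIs in spite of its greater depth. Mag had 255 and 1127 CPM in committed cells and 781 and 1801 CPM in mature cells, a ratio of 3.06 and 1.60. The libraries differed in the committed level of Mag by more than in that of Mbp, Cldn11 or Cnp. In tdTomato-negative library 2, however, 1 committed cell held 54 of the 82 Mag UMIs, and library 1 had 9 in all. The median was 1 Mag UMI per committed cell, so the committed level of Mag rests largely on that cell.

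Mog had 4 and 10 UMIs in committed cells, 113 and 137 CPM, against 1561 and 1523 CPM in mature cells, a ratio of 13.8 and 11.1. Mobp had 113 and 412 CPM in committed cells and 4510 and 3621 CPM in mature cells, a ratio of 39.8 and 8.78. The committed UMIs of Mobp, 4 and 30, lay in 1 cell of each library. Mal had 0 UMIs in all 19 committed cells and 25 and 347 UMIs in mature cells, 2168 and 3324 CPM. With a floor of 3 counts per library for the committed cells, Mal was at least 25.5-fold and 80.6-fold higher in mature cells. The 95% counting intervals of the ratio lay above 1 in both libraries for Mag, Mog, Mobp and Mal, in tdTomato-negative library 2 alone for Mbp and Cldn11, and in neither for Cnp. Stage differences after commitment carry no test, since tdTomato-negative library 1 holds 3 mature cells. Mal stayed at 0 UMIs in the committed cells when all cells were clustered at a resolution of 2, which gave 16 of them.

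**Figure D1:**
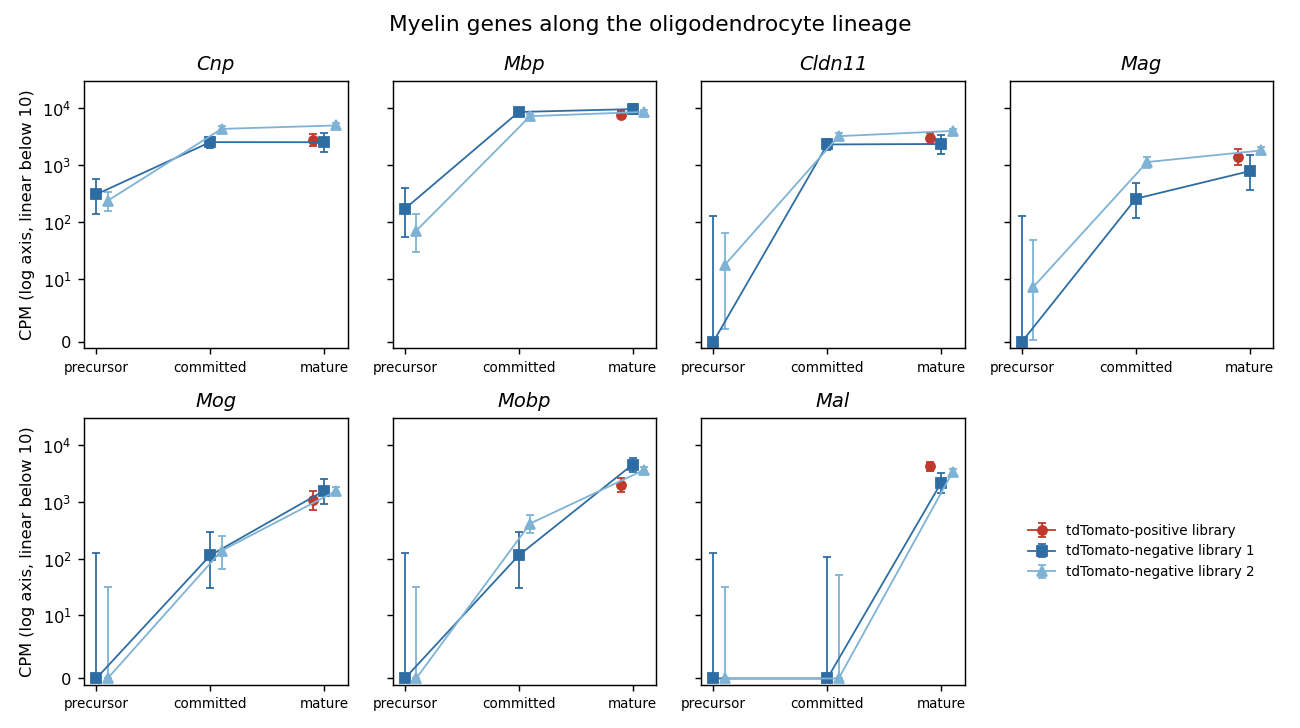
Level of each of the 7 genes (CPM, log axis that is linear below 10) in precursor-like, committed and mature oligodendrocyte-like cells, 1 point per library with its 95% counting interval. Cnp is the highest of the genes in precursor-like cells. Summed over committed cells, Mbp, Cldn11 and Cnp are near their mature level, and Mal is at 0 until the mature cells.

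The test of the lineage compared oligodendrocyte-like with precursor-like cells over 5 sums of cells, with library as a block and 1 residual degree of freedom. Of 1261 genes tested, edgeR's quasi-likelihood test with Benjamini-Hochberg adjustment called 30.7%, and 16.3% were called higher in oligodendrocyte-like cells. All 7 members passed, and all 7 were higher. The cells were clustered on other genes that vary with the members, so these calls describe the classes. Of the 4 members with UMIs in precursor-like cells, Cnp rose least, with a log2 fold change of 3.53 ± 0.35 (SE; adjusted p = 2.19e-21). Mbp rose by 6.44 ± 0.44 (adjusted p = 7.38e-42), Mag by 7.29 ± 0.66 (adjusted p = 1.84e-25) and Cldn11 by 7.87 ± 0.55 (adjusted p = 7.01e-40). Mog, Mobp and Mal passed as well (the highest adjusted p was 2.67e-21), and their fitted folds are not given because both precursor sums were at 0. The tdTomato-positive library holds 0 precursor-like cells, so with library as a block its sum does not enter the comparison of the classes. The fold changes thus rest on tdTomato-negative libraries 1 and 2. All 7 members stayed called without the tdTomato-positive library, which for that reason is no separate check. Leaving out either tdTomato-negative library left no residual degree of freedom.

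Of other genes of the pathway, in lists chosen with earlier results of these data known, those for cytoskeleton and cytoplasm moved with the members most often. In this list 7 of 8 tested genes rose in the same test, with a median log2 fold change of 3.01 against 0.02 over all genes tested. The chaperone gene Cryab (2.58 ± 0.33, adjusted p = 4.86e-13) and the deacetylase gene Sirt2 (2.23 ± 0.30, adjusted p = 3.47e-12) had the highest levels of the list in oligodendrocyte-like cells. Of membrane and junction genes 5 of 11 rose (median 2.39). The tetraspanin Cd9 did not pass, at 0.60 ± 0.28 (adjusted p = 0.0949). Of lipid synthesis genes 2 of 4 rose (median 2.15), namely Fa2h, which hydroxylates the fatty acids of myelin lipids (3.16 ± 0.55, adjusted p = 1.77e-07), and the fatty acid elongase gene Elovl7 (4.33 ± 0.85, adjusted p = 4.00e-06). The transcription factors were split, with 2 of 6 higher and 2 lower (median -0.15). Olig1 fell by 1.87 ± 0.29 (1062 CPM in oligodendrocyte-like cells, against 3995 CPM in precursor-like cells), Olig2 fell, Nkx6-2 and Myrf rose, and Sox10 was at -0.28 ± 0.32 (adjusted p = 0.569). Library was a block in each of these fits by edgeR's quasi-likelihood test.

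Within oligodendrocyte-like cells the order of the 7 levels was led by Mbp in every library. Mbp had 7642 CPM in the tdTomato-positive library (206 UMIs), against 9772 and 8133 CPM in tdTomato-negative libraries 1 and 2 (413 and 1421 UMIs), a mean of 8516 ± 1115 CPM (SD, n = 3). Cnp had 2782 CPM in the tdTomato-positive library, against 2674 and 4722 CPM, and Cldn11 had 2931 CPM, against 2555 and 3714 CPM. Their means of 3393 ± 1152 and 3067 ± 591 CPM (SD, n = 3) did not differ beyond their spread. Mobp had 1966 CPM in the tdTomato-positive library, against 1325 and 2335 CPM in the tdTomato-negative libraries. Mag had 1410 CPM, against 426 and 1545 CPM, and Mog 1076 CPM, against 521 and 967 CPM. Mobp averaged 1875 ± 511 CPM, Mag 1127 ± 611 CPM and Mog 855 ± 294 CPM (SD, n = 3). The spread of Mag overlapped that of both others, whereas those of Mobp and Mog did not overlap, and Mobp was above Mag and Mog in each library.

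Mal varied most between libraries, with 4229 CPM in the tdTomato-positive library (114 UMIs), against 592 and 1986 CPM in the tdTomato-negative libraries (25 and 347 UMIs). The tdTomato-positive library was above both others, and tdTomato-negative library 1 was below both for Mal, Mag, Mog and Mobp. By sub-cluster the tdTomato-positive library holds 0 committed and 14 mature cells, and tdTomato-negative library 1 holds 7 committed and 3 mature cells. Among mature cells alone Mal had 4229 CPM in the tdTomato-positive library (95% counting interval 3489 to 5081), against 2168 (1403 to 3201) and 3324 (2983 to 3692) CPM. The interval of the tdTomato-positive library overlaps that of tdTomato-negative library 2 there. With libraries of at least 10 cells, the gate could be compared in oligodendrocyte-like cells between the tdTomato-positive library and tdTomato-negative library 2 as values with no test, with Mal at a log2 ratio of 1.16 and the other 6 between -0.69 and 0.23. With a minimum of 5 cells, chosen after seeing the data, 2.16% of 974 genes were called (0.411% higher and 1.75% lower) and 0 of the 7 members, Mal at 1.79 ± 0.56 (adjusted p = 0.103, edgeR's quasi-likelihood test with Benjamini-Hochberg adjustment). At an unadjusted p under 0.05 there were 129 genes, and DESeq2 was not run on this fit. No member was thus called between gates in oligodendrocyte-like cells at this number of cells, in a class whose stages differ between libraries. Among mature cells alone Mobp had 1966 CPM in the tdTomato-positive library, against 4510 and 3621 CPM in tdTomato-negative libraries 1 and 2. Mbp and Mog were also below both there, Mal was above both, and Mag, Cldn11 and Cnp were between. The gate was not tested in mature cells alone.

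**Figure D2:**
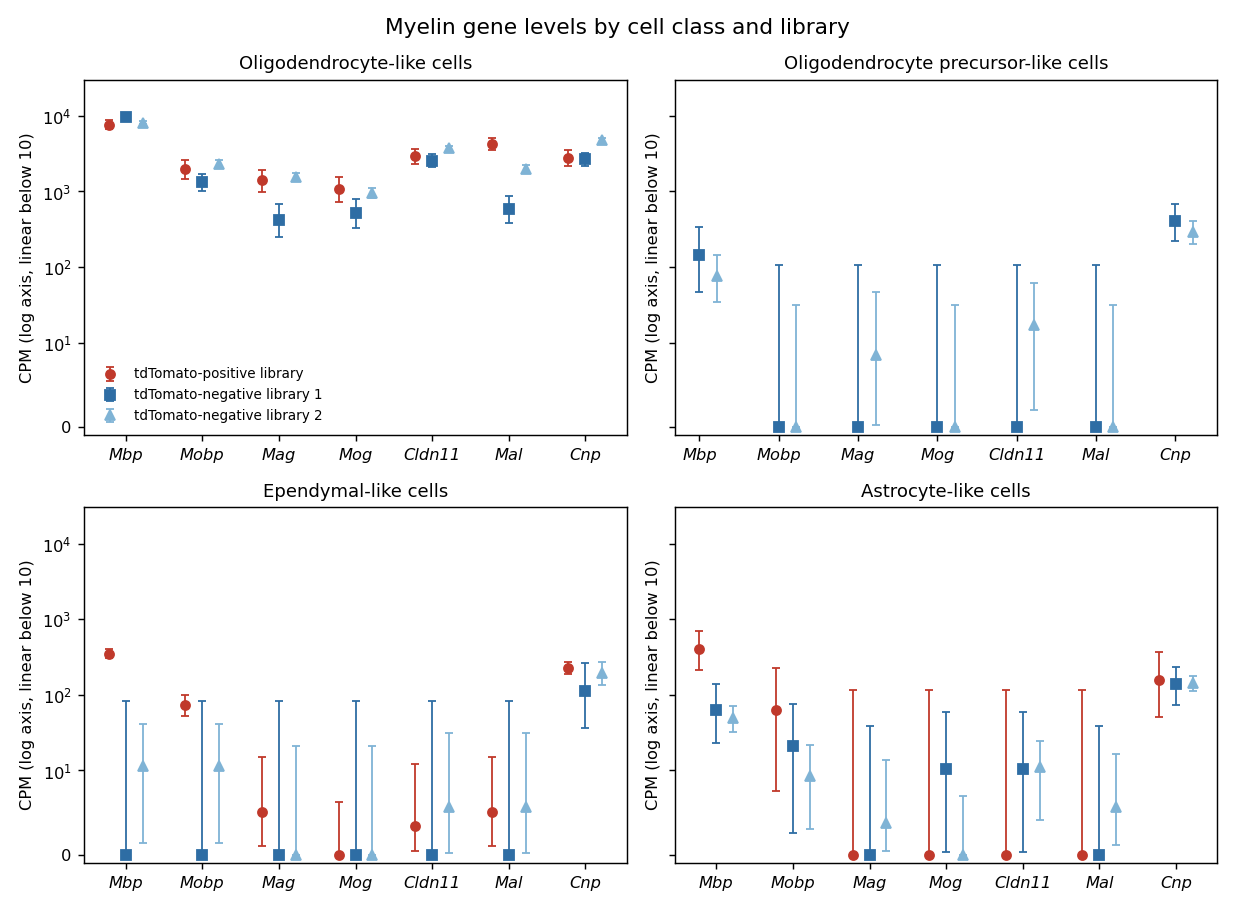
Level of each of the 7 genes (CPM, log axis that is linear below 10) in oligodendrocyte-like, precursor-like, ependymal-like and astrocyte-like cells of each library, with 95% exact Poisson intervals that cover counting error only. Oligodendrocyte-like cells are highest for all 7 genes, and in ependymal-like and astrocyte-like cells the Mbp and Mobp values of the tdTomato-positive library lie above those of the tdTomato-negative libraries.

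Outside the lineage, Mbp and Mobp were several-fold more abundant in the tdTomato-positive library than in the tdTomato-negative libraries, and Mog and Cldn11 were not. The tdTomato-positive library had 250 Mbp UMIs in 238 cells outside the lineage, 361 CPM, against 47 UMIs in 234 cells (55.3 CPM) and 101 UMIs in 1051 cells (30.7 CPM) in tdTomato-negative libraries 1 and 2. Mobp had 76.4 CPM in the tdTomato-positive library, against 9.41 and 11.2 CPM, and Cnp 206 CPM, against 53.0 and 69.2 CPM. Cldn11 had 2.88 CPM in the tdTomato-positive library, against 15.3 and 10.3 CPM, and Mag 7.21 CPM, against 0 and 3.95 CPM. Outside the lineage Mal had 34.6 CPM, against 2.35 and 4.86 CPM. Mog had 0 UMIs in the tdTomato-positive library, which allows up to 4.33 CPM at 3 counts, against 2.35 and 3.34 CPM. Of the 24 Mal UMIs in the tdTomato-positive library, 21 were in endothelial-like cells, a class that this library alone holds. Without that class Mal had 3 UMIs, 4.55 CPM (95% counting interval 0.939 to 13.3), against the same 2.35 and 4.86 CPM. The members thus did not move together, with Mbp, Mobp and Cnp higher in the tdTomato-positive library than in both others, and Cldn11 and Mog not.

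At least 1 Mbp UMI was found in 54.2% of these cells in the tdTomato-positive library, against 16.7% and 8.85% in the tdTomato-negative libraries, at median depths of 2601, 2636 and 2332 UMIs. Thinned to 1000 UMIs per cell, which left out 34, 11 and 6 cells, the shares were 27.9% in the tdTomato-positive library, against 5.83% and 4.31%. The order of the libraries was the same at equal depth. Cell classes differ between the gates, so sums over all these cells mix classes of different Cnp level.

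The gate was tested on sums over all kept cells, on cells outside the lineage, and within classes. Each fit has 1 library against 2 and 1 residual degree of freedom, so that the tdTomato-positive library is assumed to vary as the tdTomato-negative ones do. Over all kept cells edgeR's quasi-likelihood test with Benjamini-Hochberg adjustment called 41.8% of 10944 genes, 22.9% as higher, and 1 of the 7 members, Mal, at 1.45 ± 0.30 (adjusted p = 1.06e-05). That share is below the background and is not a result about the members. Mal was not called by DESeq2 (adjusted p = 0.51), and its log2 fold change was 0.91 without tdTomato-negative library 1 and 2.86 without tdTomato-negative library 2. Outside the lineage 45.8% of 10384 genes were called, 24.6% as higher, and 4 of 5 tested members were called higher, Mbp at 3.19 ± 0.30 (adjusted p = 4.39e-25), Mobp at 2.81 ± 0.39 (1.66e-11), Mal at 3.01 ± 0.65 (2.13e-05) and Cnp at 1.71 ± 0.29 (4.40e-08) by the same test. Without endothelial-like cells, an alternative chosen after seeing the data, 3 of 4 tested members were called higher, Mbp at 3.20 ± 0.30 (5.32e-25), Mobp at 2.81 ± 0.40 (3.08e-11) and Cnp at 1.79 ± 0.29 (1.18e-08; adjusted p, edgeR's quasi-likelihood test), and Mal did not reach the count filter. Endothelial-like cells held 21 of the 24 Mal UMIs behind the call of Mal in the tdTomato-positive library. Without them Mal had 4.55 CPM there, against 2.35 and 4.86 CPM in tdTomato-negative libraries 1 and 2. The make-up of the other cells also differs between gates, and its part in these calls was not tested.

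Ependymal-like cells are the class with the most cells in the tdTomato-positive library, and there Mbp differed between gates and Cnp did not pass. The tdTomato-positive library had 205 Mbp UMIs in 177 ependymal-like cells, 348 CPM (95% counting interval 302 to 400), against 0 UMIs in 12 cells and 2 UMIs in 46 cells (11.3 CPM) in the tdTomato-negative libraries. Mobp had 43 UMIs (73.1 CPM) in the tdTomato-positive library, against 0 and 2 UMIs (11.3 CPM in tdTomato-negative library 2). Cnp had 133 UMIs (226 CPM), against 5 and 34 UMIs (111 and 192 CPM). The tdTomato-positive library was above both others for Mbp, and for Cnp it was near tdTomato-negative library 2. For Mobp it was above tdTomato-negative library 2, and the 0 UMIs in the 12 cells of library 1 set no order at that depth. Mag had 3 UMIs, against 0 and 0, Mal 3, against 0 and 1, Cldn11 2, against 0 and 1, and Mog 0 in all 3 libraries.

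Of 4118 genes tested in ependymal-like cells, 0.291% were called, 0.17% as higher, and 1 of the 3 members tested, Mbp. Its log2 fold change was 5.28 ± 0.61 (adjusted p = 2.71e-14, edgeR's quasi-likelihood test with Benjamini-Hochberg adjustment). With the counts of both tdTomato-negative libraries pooled, the ratio was 38.7, with a 95% counting interval of 3.40 to 8.33 on the log2 scale. Mobp did not pass, at 3.04 ± 1.04 (adjusted p = 0.467), nor did Cnp, at 0.47 ± 0.35 (adjusted p = 0.999). The other pathway genes tested in these cells, 12 in 3 lists, held 0 calls. DESeq2 gave Mbp a log2 fold change of 5.39 with an adjusted p = 0.597 and called 0 genes, with 9 at an unadjusted p under 0.05. Against tdTomato-negative library 2 alone, without tdTomato-negative library 1, the log2 fold change of Mbp was 4.92, and without tdTomato-negative library 2 it was taken against a library at 0. With a filter of at least 500 genes and at most 10% mitochondrial UMIs, 107 tdTomato-positive ependymal-like cells had Mbp at 322 CPM, and its log2 fold change was 5.00 ± 0.61 (adjusted p = 1.94e-12, edgeR's quasi-likelihood test).

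Astrocyte-like cells of the tdTomato-positive library, 16 cells with 13 Mbp UMIs, had 404 CPM (95% counting interval 215 to 692), against 63.2 and 48.7 CPM in 43 and 216 cells of the tdTomato-negative libraries. Mbp was thus at about the same level in tdTomato-positive astrocyte-like and ependymal-like cells. Of 2047 genes 0.489% were called, 0.244% as higher, and 1 of 2 members tested, Mbp, at 2.92 ± 0.71 (adjusted p = 0.0112, edgeR's quasi-likelihood test with Benjamini-Hochberg adjustment). The call was lost in DESeq2 (2.92, adjusted p = 0.643), with no count filter (2.43, adjusted p = 0.275) and without cells that held 2 or more UMIs of oligodendrocyte markers (3.05 ± 1.03, adjusted p = 0.110). The oligodendrocyte marker list summed to 404 CPM in these cells of the tdTomato-positive library (11 of 15 genes at 0), against 432 (10 at 0) and 645 CPM (4 at 0), and its part in the result was not tested. Cnp was at 0.13 ± 0.71 in this test, with 156 CPM in the tdTomato-positive library, against 137 and 142 CPM.

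Other classes of the tdTomato-positive library outside the lineage had Mbp at a like level. It stood at 379 CPM in 20 endothelial-like cells (202 to 648), at 320 CPM in 12 microglia-like cells (138 to 630) and at 379 CPM in 8 mural-like cells (78.2 to 1108, from 3 UMIs). At least 1 Mbp UMI was in 6 of 12 microglia-like cells at a median depth of 1890 UMIs, and in 59.9% of ependymal-like cells at a median depth of 3284 UMIs. The 95% counting intervals of the 5 classes overlap, so no order among them can be read. The tdTomato-negative libraries had Mbp at 37.6 ± 13.2 CPM in neuroblast-like, 37.6 ± 20.2 CPM in transit-amplifying-like and 68.9 ± 34.5 CPM in neuron-like cells (SD, n = 2 libraries), below each of those 5 values.

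Cnp differed by cell class in the tdTomato-negative libraries. In libraries 1 and 2 of this gate it stood at 111 and 192 CPM in ependymal-like cells and at 137 and 142 CPM in astrocyte-like cells. In neuroblast-like cells it averaged 42.0 ± 0.91 CPM, in transit-amplifying-like cells 44.9 ± 2.32 CPM and in neuron-like cells 33.7 ± 25.7 CPM (SD, n = 2 libraries). The values of ependymal-like and astrocyte-like cells were therefore above those of the other 3 classes in each tdTomato-negative library. The ependymal-like value of library 1 comes from 5 UMIs in 12 cells, too few to set its order.

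Mal had a class of its own outside the lineage. Endothelial-like cells, which the tdTomato-positive library alone holds, had 21 Mal UMIs in 10 of 20 cells, 612 CPM (95% counting interval 379 to 935). These were 21 of the 24 Mal UMIs outside the lineage in that library. Without the cell with the most Mal UMIs (8 of 9630 UMIs) the level was 527 CPM. The other 6 members showed no such excess in these cells, with Mbp at 13, Mobp at 3 and Cnp at 1 UMI and the other 3 at 0.

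**Figure D3:**
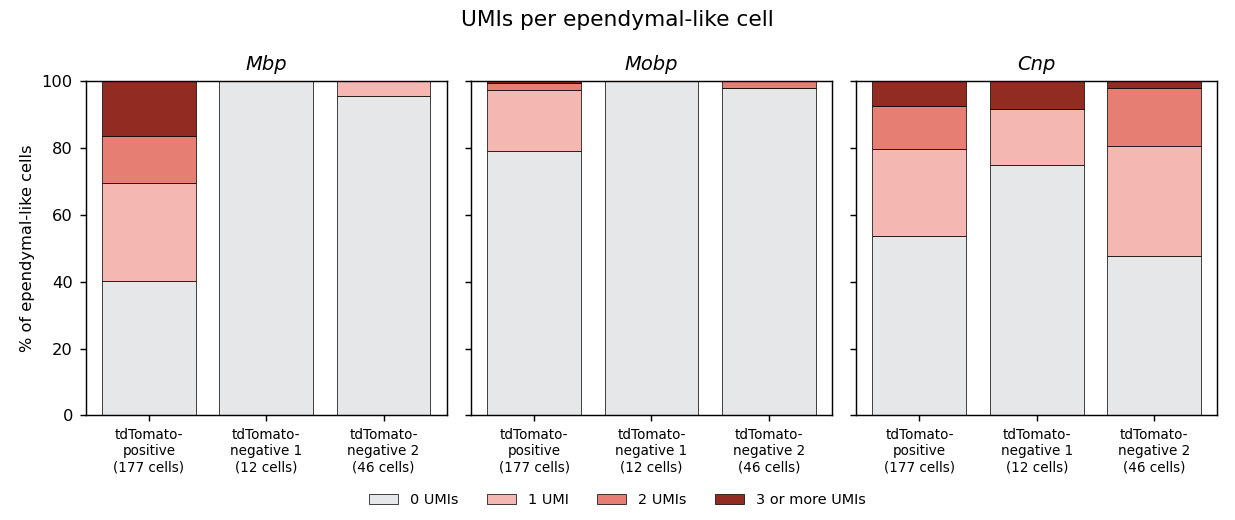
Number of Mbp, Mobp and Cnp UMIs per ependymal-like cell, as a percentage of the cells of each library. Most tdTomato-positive ependymal-like cells with Mbp hold 1 or 2 UMIs and the highest holds 6, whereas tdTomato-negative cells are nearly all at 0 for Mbp and Mobp and spread like the tdTomato-positive cells for Cnp.

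The Mbp UMIs of tdTomato-positive ependymal-like cells were spread over many cells. Of the 177 cells, 71 had 0, 52 had 1, 25 had 2 and 29 had 3 or more, with a highest value of 6, and the 5 cells with the most held 13.2% of the UMIs. Mobp was at 0 in 140 cells, 1 in 32, 2 in 4 and 3 in 1. Oligodendrocyte-like cells of the same library had at least 2 Mbp UMIs each, up to 37. The ependymal-like distribution was therefore a low count in many cells. The ranges overlap, with 3 of the 14 oligodendrocyte-like cells at 2 Mbp UMIs. Depth differed too, with medians of 3284 UMIs in ependymal-like and 1634 UMIs in oligodendrocyte-like cells.

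Mbp UMIs scaled with the depth of the cell. In tertiles of the tdTomato-positive ependymal-like cells by depth, 59 cells each with medians of 1391, 3284 and 5185 UMIs, Mbp had 0.492, 1.19 and 1.80 UMIs per cell. Per 10000 UMIs these were 3.43 (2.30 to 4.93), 3.62 (2.82 to 4.58) and 3.41 (2.80 to 4.13), with overlapping counting intervals. Thinned to 1000 UMIs, 30.6% of 160 such cells held Mbp (17 shallower cells left out), against 0 of 11 and 2.17% of 46 cells in the tdTomato-negative libraries. Cnp per 10000 UMIs was 1.78, 1.91 and 2.61 in the same tertiles.

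Markers of oligodendrocytes were then counted in the same ependymal-like cells. The 15-gene oligodendrocyte marker list, which holds none of the members, summed to 197 CPM in the tdTomato-positive library (3 genes at 0), against 222 CPM (9 at 0) and 158 CPM (6 at 0) in the tdTomato-negative libraries, with Qdpr the gene with the most UMIs in each. The 98 tdTomato-positive cells with 0 UMIs of the list held 110 of the 205 Mbp UMIs, at 395 CPM. Without the 26 cells holding 2 or more marker UMIs, Mbp stood at 353 CPM, and its log2 fold change between gates was 5.00 ± 0.61 (adjusted p = 7.66e-13, edgeR's quasi-likelihood test with Benjamini-Hochberg adjustment). That value differed by less than its SE from the 5.28 of all ependymal-like cells.

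Each gene's level outside the lineage was then set against its own level in oligodendrocyte-like cells of the same library. In tdTomato-positive ependymal-like cells Mbp stood at 4.56% of its oligodendrocyte-like level (3.96 to 5.23) and Mobp at 3.72% (2.69 to 5.01), intervals that overlap. Mag stood at 0.362% (0.0746 to 1.06), Mal at 0.121% (0.0249 to 0.352), Cldn11 at 0.116% (0.0140 to 0.419) and Mog at 0, with an upper limit of 0.583%. The intervals of Mbp and Mobp lie above those of these 4 genes. In ependymal-like cells Cnp stood at 8.13% (6.80 to 9.63) in the tdTomato-positive library, against 4.16% (1.35 to 9.71) and 4.07% (2.82 to 5.68) in the tdTomato-negative libraries. Mbp stood at 0.139% (0.0168 to 0.502) and Mobp at 0.484% (0.0586 to 1.75) in ependymal-like cells of tdTomato-negative library 2, and both at 0 in those of tdTomato-negative library 1, with upper limits of 0.840% and 6.19%. The intervals cover the counting error of the ependymal-like UMIs.

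**Figure D4:**
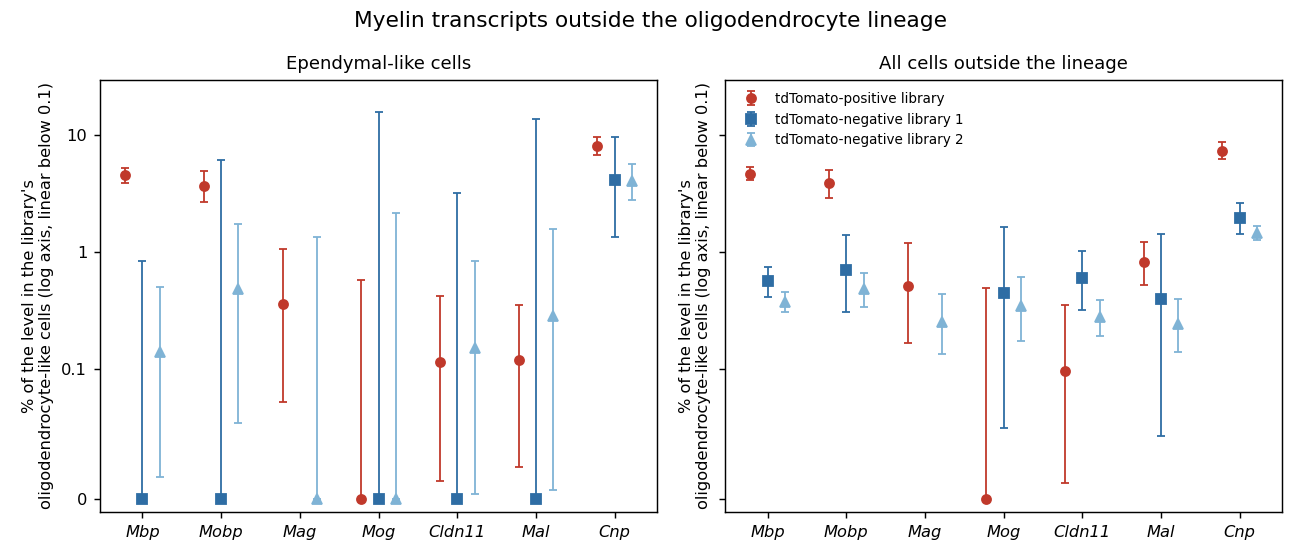
Level of each member in ependymal-like cells and in all cells outside the lineage, as a percentage of its level in oligodendrocyte-like cells of the same library (log axis that is linear below 0.1, 95% counting intervals; Mag is left out for tdTomato-negative library 1). In tdTomato-positive ependymal-like cells Mbp and Mobp stand at 4.56% and 3.72%. In those of tdTomato-negative library 1 both are at 0, with upper limits of 0.840% and 6.19%. The limit of Mobp there lies above 3.72%, so no order is set for Mobp against that library. In those of the other tdTomato-negative library Mbp and Mobp stand at 0.139% and 0.484%, with upper limits of 0.502% and 1.75%. Cnp stands at 8.13%, against 4.16% and 4.07% in the tdTomato-negative libraries.

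Over all cells outside the lineage, the tdTomato-positive library had Mbp at 4.72%, Mobp at 3.89% and Cnp at 7.41% of the own level, against 0.566%, 0.710% and 1.98% in tdTomato-negative library 1 and 0.377%, 0.481% and 1.47% in tdTomato-negative library 2. Across members the percentages ran over 0 to 7.41% in the tdTomato-positive library, against 0.398% to 1.98% in tdTomato-negative library 1 (6 members, Mag having under 20 own UMIs) and 0.245% to 1.47% in tdTomato-negative library 2.

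The make-up of the members' UMIs was compared next, since a share does not depend on depth. Among the 6 members other than Cnp, Mbp and Mobp together made up 96.9% of 256 UMIs in tdTomato-positive ependymal-like cells (exact binomial 95% interval 93.9 to 98.6), and 49.9% of 519 UMIs in oligodendrocyte-like cells of that library (45.5 to 54.3). The intervals are far apart. Outside the lineage the share was 90.7% of 334 UMIs in the tdTomato-positive library, against 76.4% of 72 UMIs (64.9 to 85.6) and 65.1% of 212 UMIs (58.3 to 71.5) in the tdTomato-negative libraries. Their oligodendrocyte-like cells had 73.1% (69.4 to 76.5) and 56.0% (54.3 to 57.7). The tdTomato-positive cells outside the lineage include endothelial-like cells, a class absent from the other libraries, with a share of 43.2% of 37 UMIs. Of those 37 UMIs, 21 were of Mal. Stage also differs, since by sub-cluster the tdTomato-positive library holds 0 committed cells, against 7 and 12 in tdTomato-negative libraries 1 and 2. In tdTomato-negative library 1 the interval outside the lineage overlaps that of its oligodendrocyte-like cells, and in tdTomato-negative library 2 it lies above.

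The gate difference itself differed between ependymal-like and oligodendrocyte-like cells, in a test added after seeing the data. Of 3918 genes, 0.664% were called, 0.332% as higher, and 2 of the 7 members were called higher by edgeR's quasi-likelihood test with Benjamini-Hochberg adjustment. The log2 gate ratio of Mbp was higher by 5.47 ± 0.49 in ependymal-like than in oligodendrocyte-like cells (adjusted p = 2.50e-24), and that of Mobp by 3.20 ± 0.87 (adjusted p = 0.0344). That of Cnp was 1.11 ± 0.44 (adjusted p = 0.628). For Mbp the value was 5.25 without tdTomato-negative library 1 and 8.95 without tdTomato-negative library 2, and for Mobp 3.16 and 5.78, with no test in either case. The larger values set the tdTomato-positive library against 12 ependymal-like cells with 0 UMIs of both genes. DESeq2, RLE scaling and the stricter cell filter were not run on this fit. In the gate test of ependymal-like cells alone, the call of Mbp was lost in DESeq2. The oligodendrocyte-like cells also differ in stage between gates. By sub-cluster the tdTomato-positive library holds 0 committed cells, against 7 and 12 in tdTomato-negative libraries 1 and 2. The part of stage in these values was not tested.

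Other mRNAs that ependymal cells are not known for were also met in tdTomato-positive ependymal-like cells, and these were chosen after their values were seen. Camk2a, a kinase gene of excitatory neurons whose mRNA is carried into dendrites, had 42 UMIs (71.4 CPM) in the tdTomato-positive library, against 0 and 0 in the tdTomato-negative ones. Slc17a7, a vesicular glutamate transporter, had 17 (28.9 CPM), against 0 and 0, and Nrgn, neurogranin, had 17 (28.9 CPM), against 0 and 0. Ttr, the transthyretin gene of choroid plexus, had 99 (168 CPM), against 0 and 0. Ependymal-like cells were not alone in this. In the other kept cells of the tdTomato-positive library Ttr had 22 UMIs (167 CPM) and Camk2a 6 (45.4 CPM). Slc17a7 had 4 UMIs there (30.3 CPM) and Nrgn 0. Counts of 0 allow up to 66.7 CPM in ependymal-like cells of tdTomato-negative library 1 and 16.9 CPM in those of tdTomato-negative library 2, at 3 counts, so a difference of Slc17a7 and Nrgn from library 1 was not detectable at this depth. The whole neuron marker list summed to 513 CPM (2 of 12 genes at 0), against 601 (10 at 0) and 384 CPM (8 at 0), with Meg3 the gene with the most UMIs in each library. The choroid plexus list summed to 377 CPM (4 of 8 genes at 0), against 89.0 (7 at 0) and 209 CPM (6 at 0), with Folr1 the gene with the most UMIs. The erythroid list summed to 25.5 CPM (1 of 5 genes at 0), against 0 and 0. The part of these mRNAs in the Mbp and Mobp values was not tested.

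The genes most like the members over 18 sums of class and library were found by Pearson's r of log2(CPM + 10) with the members' mean, as a description. They were Cyp2j12, Prima1 and Nipal4 (0.977 each), S1pr5 (0.975), RP23-44H21.1 and RP23-291B1.2 (0.973 each), Tnni1 (0.972), Opalin (0.969), A230009B12Rik (0.965) and A230001M10Rik (0.963). Among the members r ranged between 0.635 for Mal with Cnp and 0.977 for Mog with Cldn11. The sums share libraries and differ in depth.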

How the data were processed

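The authors deposited whole-number UMI counts per gene and cell barcode for 3 libraries (10x 3′ version 2 chemistry, per the labels' protocols). Cell Ranger, STAR and Seurat are named per the submitters' processing notes, with GRCm38.p5 and mm10 as builds, and the sources used here give no settings. No row of the gene table is a tdTomato or GFP transcript. The members, marker lists and pathway lists were chosen with earlier results of these data known.

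The filter on barcodes was 300 genes or more and mitochondrial UMIs of 25% or less. Kept cells were clustered with scanpy 1.11.5 (1000 variable genes, 20 components, 15 neighbours, Leiden resolution 1, and 0.5 within the lineage) without 46 genes, the 7 members and the 39 pathway genes. Clusters were named "-like" from 14 marker lists and rebuilt here, so names may differ from those of the study. Scrublet called 9, 2 and 6 cells, in the tdTomato-positive library and in tdTomato-negative libraries 1 and 2, and none was removed other than as an alternative.

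Counts were summed per class and library, with at least 10 cells (5 for the stage test and for the fits that say so), and tested in edgeR 4.0.16 (quasi-likelihood test, TMM scaling, an adjusted p of 0.05 by Benjamini-Hochberg over all genes tested), with DESeq2 1.42.0 as an alternative. The stage test uses library as a block, since its classes share libraries. Intervals are exact Poisson or exact binomial at 95% and cover counting error only, and a count of 0 is given with a floor of 3 counts. All 7 members are named, as are the 2 genes per pathway list with the highest level in oligodendrocyte-like cells, other than 1 that is not reported here, and the 10 genes most like the members. Other genes were chosen after their values were seen. The fits were tested on simulated counts. The alternatives tried were RLE scaling, no count filter, a stricter cell filter, other clustering resolutions, removal of Scrublet calls, members allowed in the clustering, and leaving out each library. The 5-cell minimum in oligodendrocyte-like cells, the test of the gate difference between classes and the sub-clustering at a resolution of 1 were added after seeing the data.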

Additional observations from a re-analysis of the deposited data

Results flagged for a closer look

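The difference between gates was not the same in ependymal-like and oligodendrocyte-like cells, by a test of the difference itself that was added after seeing the data. The log2 gate ratio, tdTomato-positive over tdTomato-negative, was higher in ependymal-like cells by 5.47 for Mbp (adjusted p = 2.50e-24) and by 3.20 for Mobp (adjusted p = 0.0344; edgeR's quasi-likelihood test with Benjamini-Hochberg adjustment). DESeq2 was not run on this fit, and in the gate test of ependymal-like cells alone it did not call Mbp. The gate has 1 library on the tdTomato-positive side. The tdTomato-positive library holds 0 committed cells, unlike the tdTomato-negative ones, and the part of stage in these values was not tested.

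Barcodes below the cell filter were not used in any comparison, and those of the tdTomato-positive library held UMIs of all 7 members. Its 62 such barcodes, with a median of 30.4% mitochondrial UMIs, held 77 member UMIs, against 2 in 3 barcodes and 0 in 6 barcodes of tdTomato-negative libraries 1 and 2. Mbp stood at 632.3 CPM there (95% counting interval 458 to 852), against 361 CPM in the kept cells outside the lineage of the same library. Cnp stood at 132.3 CPM, Mal at 102.9 CPM, Mog at 73.5 CPM, Mag at 58.8 CPM and Mobp at 58.8 CPM. Cldn11 had 73.5 CPM in the tdTomato-positive library. In the corresponding barcodes of tdTomato-negative libraries 1 and 2, which hold 3751 and 7716 UMIs, Mbp and Cldn11 had 1 UMI each in library 1 and the others 0. Counts of 0 there allow up to 799.8 and 389 CPM at 3 counts, so that, apart from Mbp against library 2, differences between the libraries in these barcodes were not detectable at this depth. In the tdTomato-positive barcodes Mbp and Mobp made up 69.1% of the 68 UMIs of the 6 members other than Cnp (56.7 to 79.8). That lies between the 96.9% of tdTomato-positive ependymal-like cells and the 49.9% of tdTomato-positive oligodendrocyte-like cells. Of the 71 such barcodes of all libraries, 27 held Mbp, 7 Cnp, 4 Mobp, 3 Cldn11, 3 Mal, 2 Mag and 2 Mog. The levels of the members other than Mbp, and the make-up, thus rest on few barcodes. The cell types behind these barcodes were not assigned.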

How the results depend on the processing

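The members called in each comparison kept their number under RLE scaling and without Scrublet calls in all fits run with them, and changed in some others. Over all kept cells 1 member was called, against 0 in DESeq2, 2 with the stricter cell filter (Mobp at 0.79 as well as Mal), 4 in cells outside the lineage and 3 in those cells without endothelial-like cells, where Mal had too few UMIs to be tested. In ependymal-like cells 1 was called, against 0 in DESeq2. In astrocyte-like cells 1 was called, against 0 in DESeq2, 0 with no count filter and 0 without cells holding 2 or more oligodendrocyte marker UMIs, with Mbp at a log2 fold change of 2.92, 2.43 and 3.05 there, against 2.92. The log2 ratio of Mal between gates in oligodendrocyte-like cells was 1.16, against 0.68 with no count filter and 1.79 with the 5-cell minimum. The share of tdTomato-positive ependymal-like cells with Mbp was 59.9%, against 30.6% after thinning to 1000 UMIs. Of 231 log2 fold changes of members under an alternative, 187 kept their call and size, 32 moved where one of the values has no test, 7 gained a call and 5 lost one, and 0 of them changed sign with a call. The level of Mbp in tdTomato-positive ependymal-like cells ran over 322 to 348 CPM, and its share of the members' UMIs over 50.4% to 52.7%.

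The number of genes called moved by more than 1.5 times in 4 comparisons under DESeq2, to 1908 against 4577 over all kept cells, 0 against 12 in ependymal-like cells, 1 against 10 in astrocyte-like cells and 83 against 387 by stage. In astrocyte-like cells 10 genes were called, against 1 with no count filter, 67 at resolution 0.5, 49 without Scrublet calls and 19 without cells with oligodendrocyte markers. The cause of these changes was not tested.

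No paired analysis was possible because the tdTomato-positive gate has 1 library and the replicate numbers come from the order of the samples. The stage test has library as a block by design, and with no replicate block it called 163 genes, against 387, with all 7 members called in both. Leaving out a library gave values with no test in the gate comparisons. The stricter cell filter left under 10 tdTomato-positive astrocyte-like cells and 1 library with 10 oligodendrocyte-like cells, so those gate fits could not be made. Depth limits Mag, Mog, Cldn11 and Mal outside the lineage, where their counts in the tdTomato-positive ependymal-like cells were 3 UMIs or fewer.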

Other observations

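The kept cell outside the lineage with the most Mbp was 1 transit-amplifying-like cell of the tdTomato-positive library, with 557 UMIs, 330 genes and 23.5% mitochondrial UMIs. It held 7 Mbp and 2 Mobp UMIs and 0 of the other 5 members.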
